A study of Mus musculus with 48 samples.

Results

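The caecum was profiled on 16 one-colour arrays, 1 per mouse, of the 48 arrays run for liver, ileum and caecum, and these 16 fell into 2 feeding series of 8 arrays. The water series comprised the water control Ctr1 (2 mice), the chicory flour decoction Chic (3 mice) and the fructose solution Fru (3 mice). The DMSO series comprised the control Ctr2 (2 mice) and the chlorogenic acid (CGA) and sesquiterpene lactone (STL) solutions (3 mice each). All mice were BALB/cOlaHsd, were 8 weeks old at the start and received 500 µL by daily gavage for 30 days beside standard chow, which for Chic carried 30 mg of root powder a day. The study's feeding methods give DMSO, a solvent for poorly soluble compounds, as the carrier of Ctr2, CGA and STL, whereas the sample labels give water for both control groups. Solvent and any difference in the time of feeding or in handling went with the series and cannot be told apart. The substances fed also differed between the series. The methods and the sample names give male mice. The gender tag, which went partly with the series, reads female on 8 of the 16 arrays (Fru 2, Fru 3 and all of CGA and STL). The Y-linked translation factor gene Eif2s3y lay between 8.33 and 9.40 (log2 intensity) on those 8, within or above its range on the arrays tagged male. The lowest of those, Ctr1 2, was at 7.57. Its deposited Eif2s3y intensity was 309, near the lowest gene row of that array, 300. For RNA extraction the methods name colon at one point, whereas the labels name caecum, the name used here.

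The caecum is the blind pouch at the start of the large intestine. Its wall is lined by absorptive colonocytes, which oxidise the fatty acids made by gut bacteria, and by mucus-secreting goblet cells, and mitochondria supply most of their energy. Transcripts such as albumin or the major urinary proteins are by contrast known chiefly as products of hepatocytes. In bulk tissue, fewer cells of a type and less RNA per cell cannot be told apart. Of longer marker lists, the caecum table held 12 colonocyte markers (among them Car1, Car4, Aqp8 and Slc26a3) and 12 goblet cell markers (among them Muc2, Fcgbp and Zg16). It also held 13 markers of small intestinal enterocytes. None of the markers looked for of tuft cells, mast cells, eosinophils, exocrine pancreas and male accessory glands was in it, so these could not be described.

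The question put to the arrays was which genes, and which tissues of origin, separated the DMSO series from the water series. Values are log2 intensities after quantile normalization over the 16 arrays, differences are DMSO series minus water series, and a gene was called at an adjusted p under 0.05 in limma. Array brightness did not follow the series. The median deposited intensity of an array ranged from 186 to 1687 in the water series and from 479 to 1428 in the DMSO series, and the mean log2 medians differed by 0.10 (two-sided exact permutation test over 12870 splits, p = 0.838). Chic 3, Fru 2, CGA 2 and STL 3 were dim, more than 0.5 below the median of all arrays on the log2 scale. On Ctr1 2 no gene row read under 300 and 114 of 5987 lay within 10 of it, whereas 57 to 3732 rows were under 300 on the other 15 arrays. The table thus appears to hold only rows that reached 300 on this water control. The first and second principal components, with 25.7% and 21.0% of the variance, did not part the series (p = 0.861 and 0.935), whereas the third, with 14.3%, ran from -4.44 to 17.05 on the water arrays and from -14.05 to 4.45 on the DMSO arrays (difference -15.79, exact permutation p = 0.00202, adjusted p = 0.0121 over the 6 array measures tested). The 15 genes with the strongest weight toward the water arrays on that component held 7 major urinary protein genes and the liver genes Alb, Ahsg, Apoa2, Serpina1c and Serpina1e, of which Alb, Ahsg and Apoa2 only just reached 300 on Ctr1 2. Ctr1 2 is itself among the arrays permuted, and the p for the third component does not account for rows chosen on it. That p is therefore a description.

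Only 2 of 3777 genes were called between the series (0.0530% of those tested), and both fell in the DMSO series. At 6 genes, these 2 included, the 8 arrays of one series did not overlap with the 8 of the other (0.159%), 2 of them higher in the DMSO series (0.0530%) and 4 lower (0.106%). Without adjustment 540 genes had a p under 0.05 (14.3%), of which 395 were higher in the DMSO series (10.5%) and 145 lower (3.84%), and the median difference of all genes was 0.06. Pde4c encodes a phosphodiesterase that degrades the second messenger cyclic AMP. Its level was 11.05 and 11.30 in Ctr1, 10.50, 10.78 and 10.66 in Chic and 10.82, 10.84 and 10.80 in Fru, against 10.33 and 10.08 in Ctr2, 10.30, 10.15 and 10.37 in CGA and 9.85, 9.65 and 9.85 in STL. The lowest water array thus stayed above the highest DMSO array, with the 3 STL mice lowest of all. Pde4c fell by 0.77 (SE 0.13, adjusted p = 0.0342), a 1.71-fold change. Gm4971, a transcribed pseudogene in RefSeq, was 10.27 and 10.63 in Ctr1, 9.84, 9.97 and 9.77 in Chic, 9.73, 10.40 and 10.14 in Fru, 9.69 and 9.33 in Ctr2, 8.85, 9.42 and 9.31 in CGA and 9.02, 8.91 and 9.30 in STL. Its lowest water array, Fru 1, and its highest DMSO array, Ctr2 1, nearly touched. Gm4971 fell by 0.87 (SE 0.15, adjusted p = 0.0342). In limma both calls were lost without the 4 dim arrays (Pde4c and Gm4971 adjusted p = 0.0892), with the values as deposited, and when any of 9 single arrays was left out (Ctr1 1, Ctr1 2, Chic 2, Fru 1, CGA 1, CGA 2 or an STL array).

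**Figure D1:**
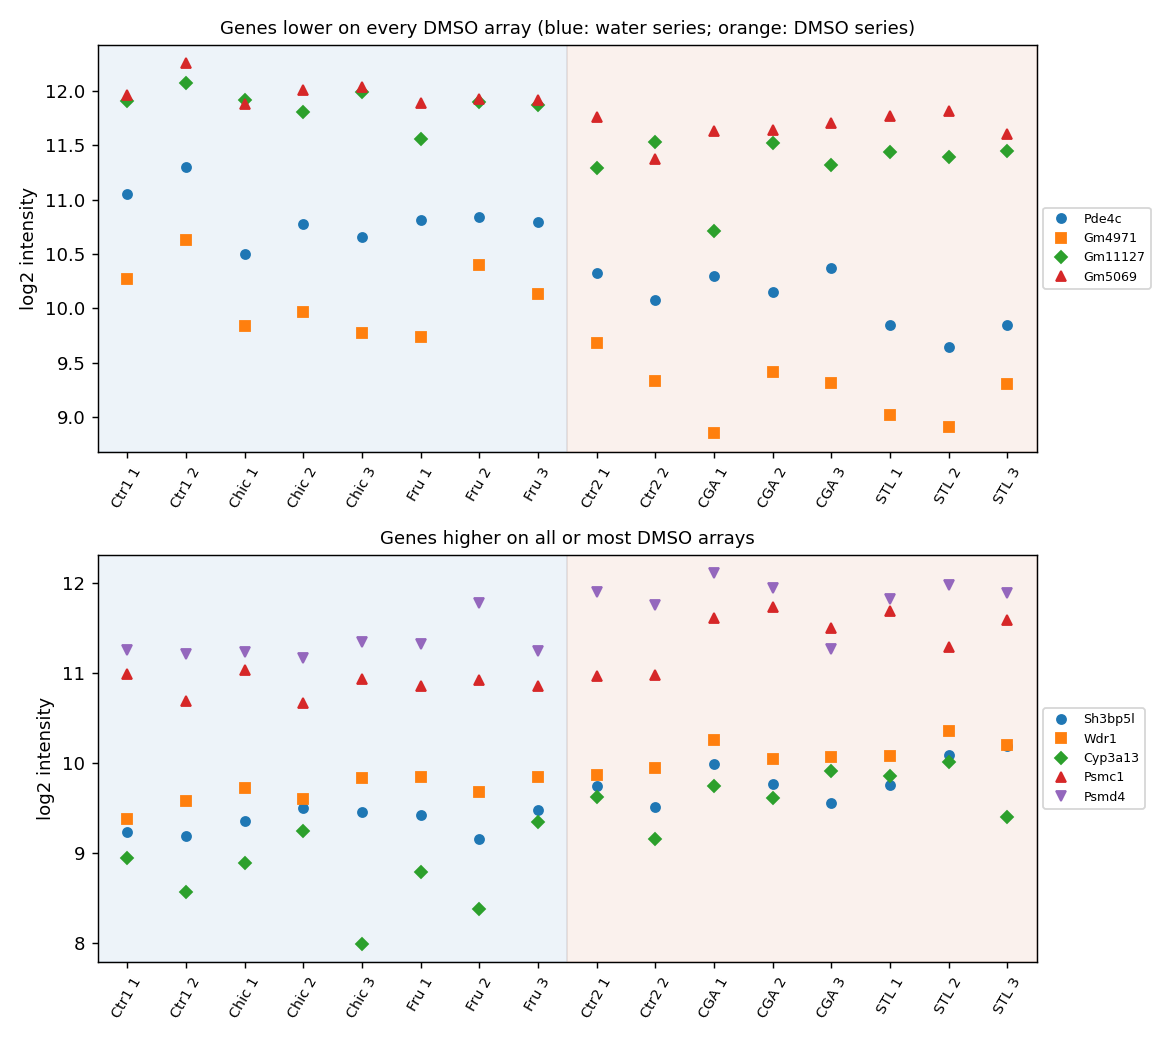
Log2 intensity (y axis) of 4 genes that lay lower on every DMSO array (top) and of 5 genes that lay higher on all or most of them (bottom), one marker per array (x axis; blue field, water series; orange field, DMSO series). Pde4c lay between 10.50 and 11.30 on the water arrays and between 9.65 and 10.37 on the DMSO arrays.

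Among the 4 other genes without overlap, chosen after their values were seen, 2 lay lower in the DMSO series and 2 higher. Gm11127, for which RefSeq lists H2-K1 as a synonym, a class I histocompatibility gene, lay between 11.56 and 12.08 on the water arrays and between 10.71 and 11.53 on the DMSO arrays, a difference of -0.55 (SE 0.11, adjusted p = 0.0823). CGA 1 was the lowest array there. The pseudogene Gm5069 differed by -0.32 (SE 0.08, adjusted p = 0.110), but 1 of its 2 other probes gave 0.24. Wdr1, which encodes a protein that disassembles actin filaments together with cofilin, lay between 9.37 and 9.84 on the water arrays and between 9.86 and 10.35 on the DMSO arrays, a difference of 0.41 (SE 0.09, adjusted p = 0.0823). Sh3bp5l, which encodes an SH3-domain binding protein, differed by 0.48 (SE 0.11, adjusted p = 0.0823), whereas its second probe, of nearly the same mean level, gave 0.04. For Sh3bp5l the difference was 0.10 without CGA 2 and 0.02 without the 4 dim arrays. Cyp3a13, a cytochrome P450 of drug and steroid oxidation, lay at 8.94 and 8.57 in Ctr1, 8.89, 9.24 and 7.99 in Chic, 8.79, 8.37 and 9.34 in Fru, 9.62 and 9.16 in Ctr2, 9.74, 9.61 and 9.91 in CGA and 9.85, 10.01 and 9.40 in STL. All DMSO arrays but Ctr2 2 lay above the highest water array, and the difference was 0.90 (SE 0.18, adjusted p = 0.0823).

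Albumin, fetuin-A and most major urinary protein genes, known as products of the liver, were seen on part of the water arrays and were mostly at the floor on the DMSO arrays. How they came into the table limits what they show. A gene that read under 300 on Ctr1 2 is not in the table, so a gene near the floor elsewhere was held only if that water control was high, and a gene low there and high in the DMSO series could not appear. Alb, Ahsg, Apoa2, Mup5 and Mup-ps16 read 325 to 428 there, just inside that limit. Their direction is therefore partly set by the table, and the values of the lists below are a description. Many major urinary protein (MUP) genes encode pheromone-binding proteins that the mouse liver secretes for excretion in urine. The table held 9 MUP genes, of which Mup-ps16 is a pseudogene by its symbol. They had a median difference of -3.00 (-2.83 without Ctr1 2, which does not undo the limit, and -1.82 with the gender tag as a covariate), and none was called. The 10 hepatocyte genes held had a median of -1.14 (-1.03 without Ctr1 2), against 0.06 over all genes, with 8 lower and 2 higher in the DMSO series. They did not fall as a set. For 4 of them, C3, Cyp2e1, Rbp4 and Trf, the unadjusted p was 0.05 or more, and their differences ran from -0.61 to 0.16. C3, Rbp4 and Trf were above the array's 1st percentile on all arrays. Cyp2e1 was above it on 7 of the 8 water arrays and on all 8 DMSO arrays. The MUP genes and the Serpina1 genes are close paralogs whose probes may read each other, so these are not separate observations. To show the sequence before the start of genes of both lists, 120 bases upstream of the start site are printed for 3 of them from RefSeq (GRCm38.p6), 5′ to 3′ on the gene's strand: Alb (chr5:90460750-90460869, plus strand), Serpina1e (chr12:103956898-103957017, minus strand) and Mup2 (chr4:60139857-60139976, minus strand). Capitals mark GTTAAT, a core of the site bound by the hepatocyte nuclear factor HNF1, or TATATAA, the core promoter box that places RNA polymerase II at the start.
Alb: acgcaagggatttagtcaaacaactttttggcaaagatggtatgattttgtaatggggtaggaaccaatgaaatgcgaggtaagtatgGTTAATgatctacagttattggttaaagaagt
Serpina1e: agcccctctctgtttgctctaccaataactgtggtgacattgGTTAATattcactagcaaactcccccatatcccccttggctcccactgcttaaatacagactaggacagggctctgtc
Mup2: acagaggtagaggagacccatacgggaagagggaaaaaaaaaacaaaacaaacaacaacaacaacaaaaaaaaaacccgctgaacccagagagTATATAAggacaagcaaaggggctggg
GTTAAT, searched on both strands in the 250 bases upstream of the start, was present in 4 of the 9 hepatocyte genes with a promoter in the table (Alb, Serpina1a, Serpina1c and Serpina1e), in 0 of the 6 MUP genes with one, and in 6.43% of all 32851 promoters. TATATAA, searched on the gene's strand, was present in 5 of those 6 MUP genes, in 0 of the 9 hepatocyte genes and in 2.05% of all promoters. A match is a description of the letters and not evidence of binding.

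Alb encodes serum albumin, the main protein of blood plasma. It lay at 10.11 and 8.22 in Ctr1, 9.61, 6.54 and 5.16 in Chic, 7.96, 6.06 and 4.70 in Fru, 6.34 and 5.38 in Ctr2, 5.26, 5.29 and 3.98 in CGA and 4.64, 3.78 and 2.94 in STL. It was high on Ctr1 1, Chic 1, Ctr1 2 and Fru 1, and Chic 3, Fru 2 and Fru 3 fell into the range of the DMSO arrays. The difference was -2.59 (SE 0.72, adjusted p = 0.134). In the deposited intensities Alb read 1589 and 329 in Ctr1, 911, 268 and 12 in Chic and 459, 7 and 22 in Fru, and 197 and 8 in Ctr2, 8, 7 and 18 in CGA and 15, 10 and 3 in STL. It was above the array's 1st percentile on 4 of the 8 water arrays and on 0 of the 8 DMSO arrays, so its log2 difference is set by values at the floor of the arrays. Ahsg encodes fetuin-A, a plasma protein that inhibits calcification. It lay at 9.15 and 8.88 in Ctr1, 8.69, 5.86 and 6.29 in Chic, 7.25, 7.06 and 4.36 in Fru, 4.93 and 4.64 in Ctr2, 5.59, 4.64 and 4.12 in CGA and 4.87, 3.98 and 4.90 in STL. All water arrays but Fru 3 lay above the highest DMSO array, and the difference was -2.48 (SE 0.56, adjusted p = 0.0823). Ahsg was above the 1st percentile on 5 water arrays and 0 DMSO arrays.

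The alpha-1 antitrypsin genes read above the 1st percentile on all 16 arrays. Serpina1e, 1 of these genes, lay at 10.67 and 10.63 in Ctr1, 10.68, 9.45 and 9.43 in Chic, 9.58, 9.17 and 8.42 in Fru, and between 8.16 and 8.81 on the 8 DMSO arrays. Only Fru 3 overlapped with the DMSO series, and the difference was -1.31 (SE 0.28, adjusted p = 0.0823). Serpina1c differed by -1.26 (SE 0.30, adjusted p = 0.0870) and Serpina1a by -1.02 (SE 0.29, adjusted p = 0.145). Apoa2, a protein of high-density lipoprotein that the liver secretes, differed by -1.56 (SE 0.54, adjusted p = 0.212), and its second probe gave -2.96. Apoa2 was above the 1st percentile on 5 water arrays and 0 DMSO arrays. Most MUP genes were likewise at the floor in the DMSO series, so their differences depend on values there and have no order. Mup1 was above the 1st percentile on 7 water and 2 DMSO arrays, Mup2 and Mup20 on 6 and 1, Mup4 on 7 and 1, Mup5 on 4 and 0 and Mup-ps16 on 3 and 0. Mup17, Mup18 and Mup19 were less affected, above it on 7 water arrays each and on 3, 5 and 6 DMSO arrays. On the water arrays the lowest value of Mup1 was 5.80, its median 11.10 and its highest 12.98, against 4.99, 6.75 and 10.57 on the DMSO arrays. Ctr2 1 stood among the water arrays, Fru 3 and Chic 3 among the DMSO arrays, and the difference was -3.22 (SE 0.97, adjusted p = 0.155). Mup20, the protein darcin that female mice recognise in male urine, differed by -3.17 (SE 0.82, adjusted p = 0.106), Mup5 by -3.10 (SE 0.76, adjusted p = 0.102), with Ctr2 2 missing, and Mup2 by -2.67 (SE 0.72, adjusted p = 0.112). The differences of Mup4, Mup17, Mup18, Mup19 and Mup-ps16 ran from -3.08 to -2.70, and CGA 2 had no value for Mup-ps16.

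**Figure D2:**
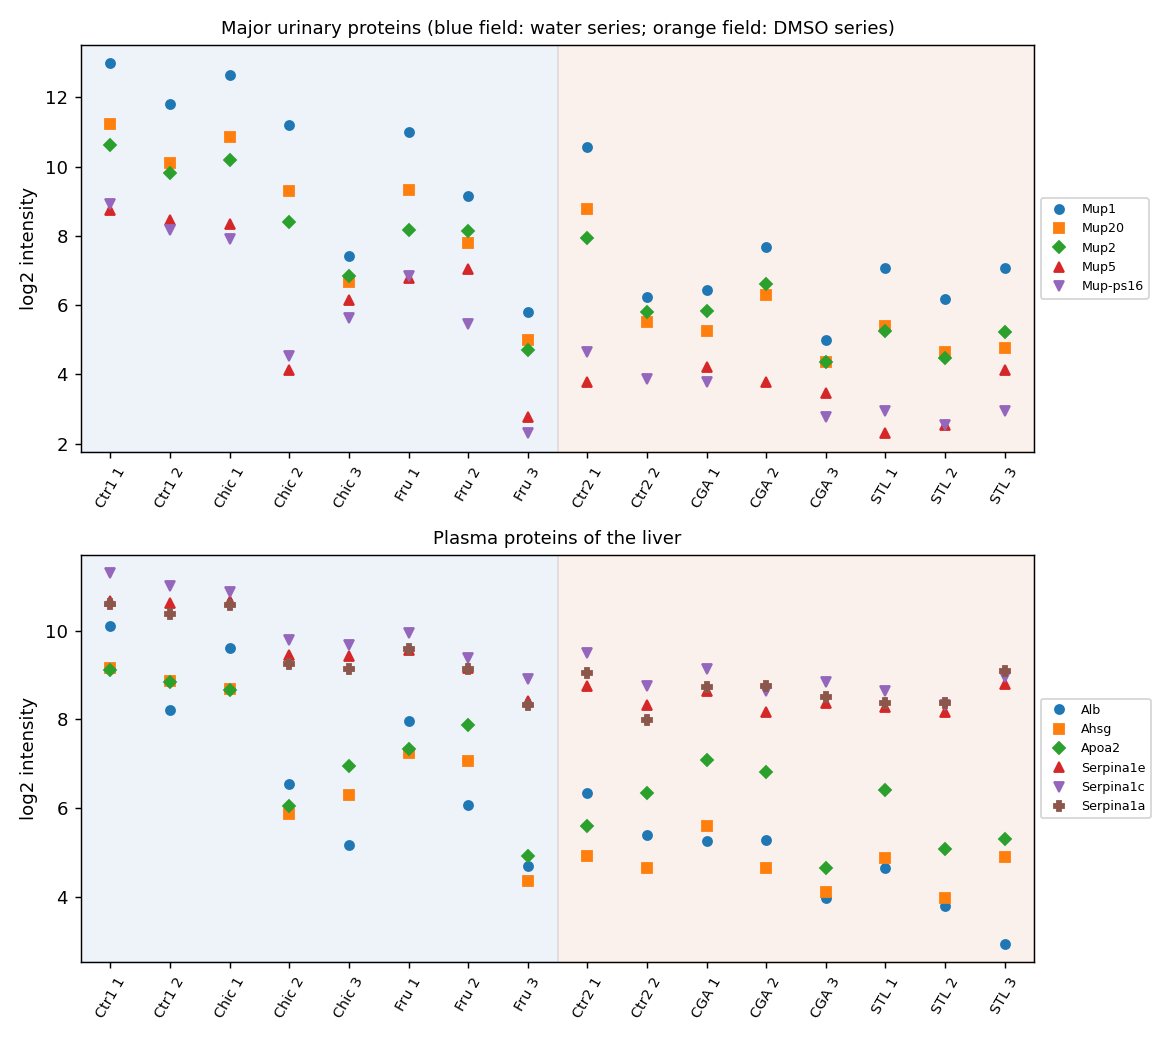
Log2 intensity (y axis) of 5 major urinary protein genes (top) and 6 plasma protein genes of the liver (bottom), one marker per array (x axis; blue field, water series; orange field, DMSO series). Ctr1 1, Ctr1 2 and Chic 1 were highest for Ahsg, at 9.15, 8.88 and 8.69, and Fru 3, at 4.36, lay within the DMSO range.

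Picked for the highest correlation over all genes, the 5 genes whose levels followed Ahsg most closely over the 16 arrays (15 where a value was missing) were Mup-ps16 (Pearson r = 0.97), Mup5 (0.97), Serpina1e (0.96), Serpina1c (0.95) and Serpina1a (0.93). Ahsg, Mup5 and Mup-ps16 were at the floor on most arrays, so these correlations rest on a few high water arrays. The summed intensity of the hepatocyte list was 12.02 to 13.60 (log2) in the water series, median 12.54, and 11.84 to 12.30 in the DMSO series, median 12.20. That of the MUP list was 8.50 to 15.33, median 13.38, and 8.27 to 12.89, median 9.58. The water series spread over both high and low levels, whereas the DMSO series held a single array above 10.22 for the MUP list, Ctr2 1. Klk1b22, a kallikrein protease gene with close paralogs, read 9.25 and 8.84 in Ctr1, 7.46 to 8.33 in Chic and Fru and 6.05 to 7.67 in the DMSO series (-1.15, SE 0.27, adjusted p = 0.0847). Its deposited intensity was 419 on Ctr1 2, just inside the limit of 300, and 56 to 291 on the DMSO arrays. The direction of Klk1b22 is thus also partly set by the table. The ribosomal RNA probe Rn18s lay between 13.88 and 15.37 on the water arrays. On the DMSO arrays it was between 11.17 and 14.73 except on Ctr2 2, at 2.78 (difference -2.45, SE 1.24, adjusted p = 0.384). Without Ctr2 2 the difference of Rn18s was -1.13. The part of ribosomal RNA in the difference of the liver transcripts was not tested.

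**Figure D3:**
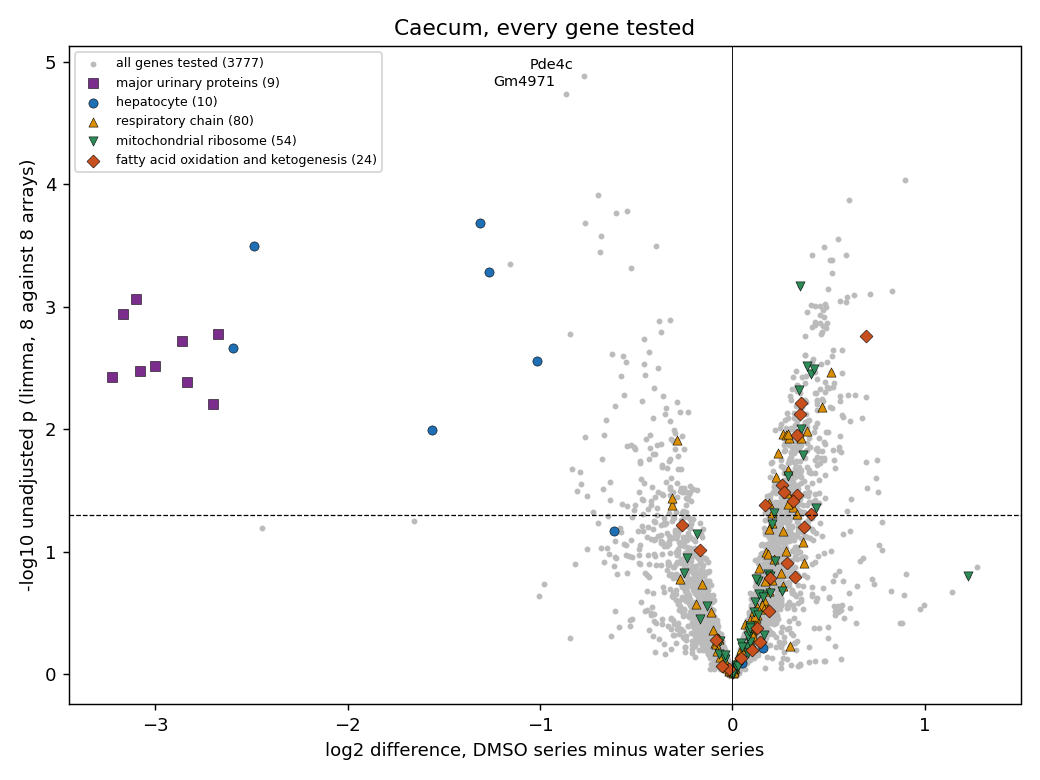
Log2 difference between the series (x axis) against the unadjusted significance from limma (y axis, negative log10 scale) for the 3777 genes tested, with 5 gene lists marked and a dashed line at the unadjusted threshold of 0.05. The 9 major urinary protein genes stand at the left, around their median of -3.00, among rows that the table holds only where Ctr1 2 reached 300, while the mitochondrial lists lie slightly right of 0 with medians of 0.09 to 0.23.

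Haemoglobin transcripts stood out on single arrays. The red blood cell list (5 genes) had a median difference of 0.65, with 1 member at an unadjusted p under 0.05, the alpha-globin gene Hba-a2 (0.75, SE 0.29, adjusted p = 0.244). STL 3 carried most of it. There Hba-a1 read 14.70, against 10.66 to 12.32 on the other DMSO arrays, and the beta-globin gene Hbb-bt read 14.57 against 10.57 to 11.64. Without STL 3 the list median was 0.21. Hbb-bt was also high on the dim array Fru 2, at 12.57 against 10.24 to 10.92 on the other water arrays.

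Transcripts of Paneth cells, a cell type of the small intestine, varied widely between mice in both series. The Paneth cell list (12 genes, 9 of them defensins, the antimicrobial peptides of the ileal crypt) had a median difference of 0.35 and 0 members at an unadjusted p under 0.05. Ctr1 2, the array that set the rows, had the highest summed level. The level ran from 11.39 to 17.67 in the water series and from 10.98 to 17.18 in the DMSO series. Defa1, an alpha-defensin, was 14.86 on Ctr1 2, 14.43 on Chic 2, 14.92 on Ctr2 2 and 14.47 on STL 3, but 4.93 on Fru 1, 6.24 on Chic 3 and 6.73 on CGA 2. High and low arrays occurred in both series, and the difference was 0.48 (SE 1.65, adjusted p = 0.931). Pla2g2a, the secreted phospholipase of Paneth cells, varied alike, from 5.99 to 10.86 and from 5.83 to 10.71 (difference 0.28, SE 0.87). Lyz1, the Paneth cell lysozyme, differed by -0.56 (SE 0.31) and Itln1, a lectin that binds bacterial sugars, by -0.47 (SE 0.40).

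The enterocyte list (13 genes) had a median of 0.17 with 1 member on each side at an unadjusted p under 0.05. Fabp2, the intestinal fatty acid-binding protein, lay between 13.89 and 14.25 on the water arrays and between 14.05 and 14.41 on the DMSO arrays (0.20, SE 0.08, adjusted p = 0.280). S100g, the calcium-binding calbindin-D9k, lay between 11.32 and 12.67 and between 9.75 and 12.60 (-0.80, SE 0.35, adjusted p = 0.306), with STL 1 and STL 2 the lowest, at 9.75 and 10.30. Mep1a, a metalloprotease of the brush border, differed by 0.10 (SE 0.10) and Slc51b, a subunit of the basolateral bile acid transporter, by 0.37 (SE 0.25). The colonocyte list (12 genes) had a median of 0.05, and the smooth muscle list (12 genes) a median of -0.08 with 0 members at an unadjusted p under 0.05. The fat marker Cfd (adipsin), the acute phase gene Saa3 and the lysosomal galactosidase gene Gla differed by 0.32 (SE 0.43), -0.09 (SE 0.14) and 0.60 (SE 0.47). At Gla only Ctr1 stood apart, at 8.35 and 10.14 against 11.60 to 12.81 on the other 14 arrays.

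**Figure D4:**
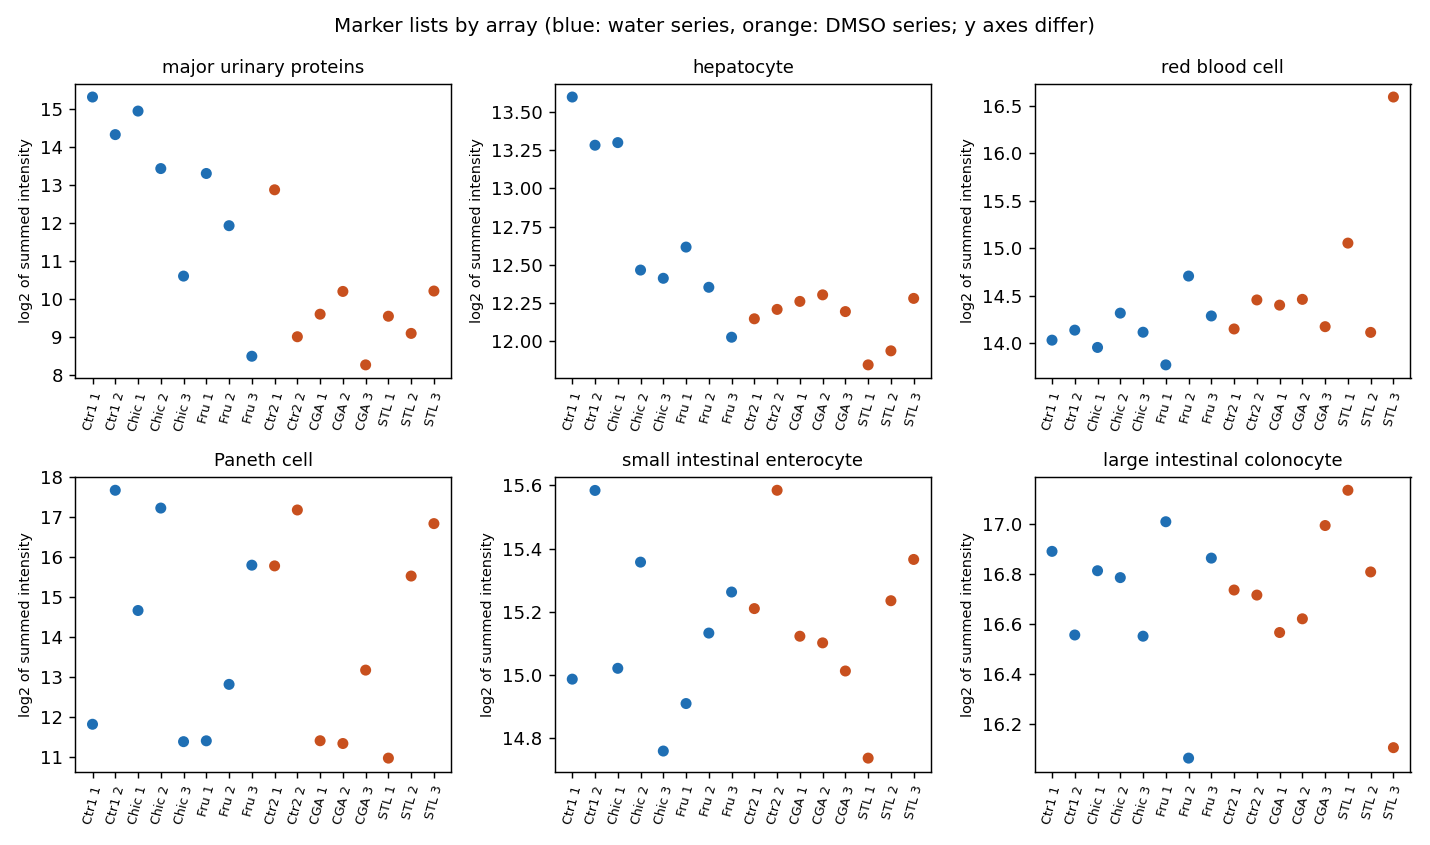
Log2 of the summed intensity of 6 marker lists (y axes, which differ) on each of the 16 arrays (x axis; blue, water series; orange, DMSO series). The MUP list ran from 8.50 to 15.33 in the water series and from 8.27 to 12.89 in the DMSO series, while the Paneth cell list spanned 10.98 to 17.67 without parting them.

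No gene of mitochondrial energy metabolism was called, and the lists below are described by their counts beside those of all genes. Of 24 measured genes of fatty acid oxidation and ketogenesis, 10 were higher at an unadjusted p under 0.05 and 0 lower (41.7%, against 10.5% of all genes in that direction), with a median of 0.23 against 0.06 for all genes. Decr1, which reduces unsaturated intermediates of beta-oxidation, lay between 10.88 and 11.15 on 7 water arrays and at 11.81 on the dim array Fru 2, and between 11.26 and 11.61 on the DMSO arrays (0.35, SE 0.12, adjusted p = 0.190). Apart from Fru 2, the series did not overlap there. Pex11a, which promotes peroxisome division, differed by 0.35 (SE 0.11) and Hadhb, a subunit of the mitochondrial trifunctional protein, by 0.33 (SE 0.12). Without the 4 dim arrays, 6 of the 24 genes were higher at an unadjusted p under 0.05 (25.0%, against 12.1% of all genes) and 1 was lower, and without Ctr1 2, 4 were higher (16.7% against 8.18%).

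Of 80 respiratory chain genes, 17 were higher and 3 lower at an unadjusted p under 0.05, against 10.5% and 3.84% of all genes, with a median of 0.13. With the arrays shifted to a common 75th percentile 7 were higher (8.75%, near the 9.11% of all genes) and 0 lower. Without Ctr1 1 or Ctr1 2, 11 were higher (13.75%, against 9.43% and 8.18% of all genes) and 1 lower. Without Fru 2, 24 were higher (30%, against 12.9%) and 1 lower. Without the 4 dim arrays 23 were higher (28.75%, against 12.1%) and 1 lower. The complex I subunit gene Ndufb11 lay between 11.58 and 11.91 on 7 water arrays and at 12.82 on Fru 2, and between 12.09 and 12.69 on the DMSO arrays (0.51, SE 0.15, adjusted p = 0.153). Ndufa3 differed by 0.47 (SE 0.15), Ndufa5 by 0.39 (SE 0.14) and Atp5k, a subunit of ATP synthase, by 0.26 (SE 0.09). Of 54 genes of the mitochondrial ribosome, which translates the mitochondrial genome, 10 were higher and 0 lower (18.5%), with a median of 0.09. Without Fru 2 the count was 19 (35.2%, against 12.9% of all genes). It was 7 without Ctr1 1 (13.0% against 9.43%) and 8 without Ctr1 2 (14.8% against 8.18%). Mrps18b lay between 9.50 and 9.92 on the water arrays and between 9.85 and 10.22 on the DMSO arrays, of which Ctr2 1 alone overlapped (0.35, SE 0.09, adjusted p = 0.102). Mrpl48, Mrpl43 and Mrps21 differed by 0.42 (SE 0.12), 0.41 (SE 0.12) and 0.39 (SE 0.11), although second probes of Mrpl43 and Mrps21 gave 0.17 and 0.04.

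The proteasome degrades ubiquitin-tagged proteins. Of its 35 measured genes, 4 were higher and 1 lower at an unadjusted p under 0.05, a share on the higher side (11.4%) close to that of all genes. Psmc1, an ATPase of the regulatory particle, lay between 10.67 and 11.03 on the water arrays, at 10.96 and 10.98 in Ctr2 and between 11.29 and 11.73 in CGA and STL (0.55, SE 0.12, adjusted p = 0.0823). The ubiquitin receptor gene Psmd4 differed by 0.51 (SE 0.12, adjusted p = 0.0823), the scaffold gene Psmd1 by 0.39 (SE 0.13) and the core subunit gene Psma4 by -0.37 (SE 0.13). Genes with levels most like Psmc1 were Cisd3 (r = 0.90), Rgcc, Ddc, Ubald2 and St14 (0.85 to 0.86). Those most like Pde4c were Gm10631 (r = 0.94), A830073O21Rik (0.91), Gm4971 and 9230110C19Rik (0.89 each) and Heatr3 (0.85).

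**Figure D5:**
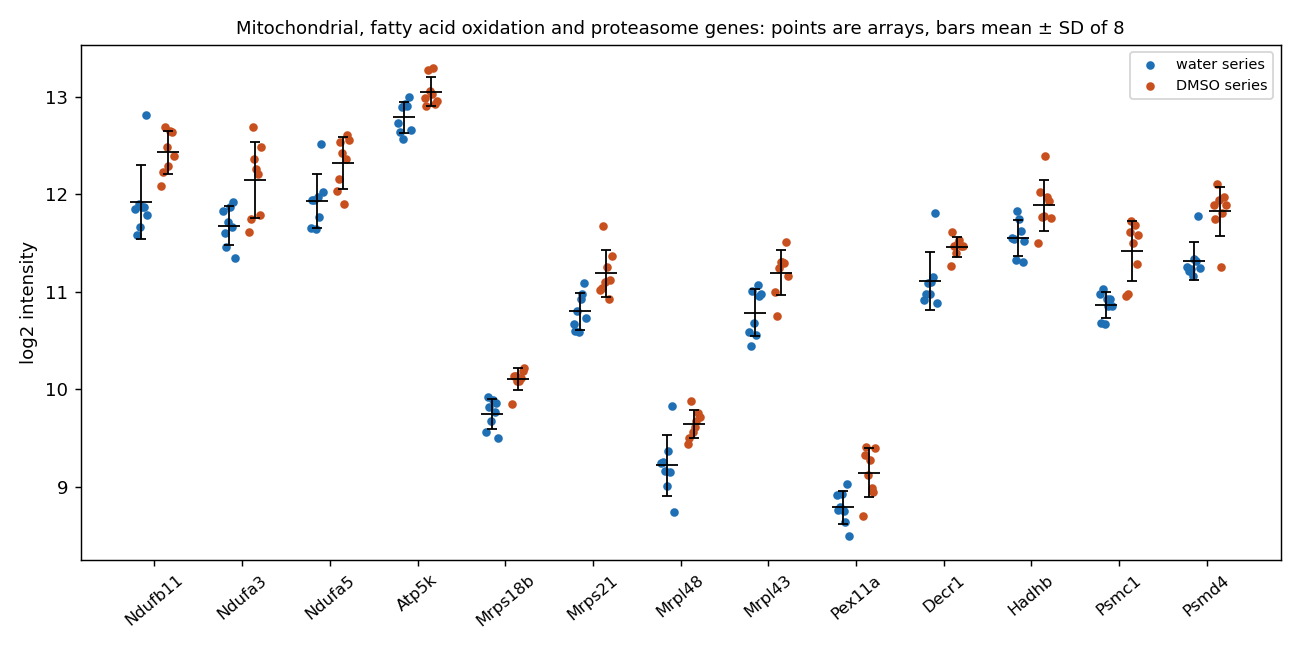
Log2 intensity (y axis) of 13 genes of the respiratory chain, mitochondrial ribosome, fatty acid oxidation and proteasome (x axis), with points for single arrays (blue, water series; orange, DMSO series) and bars for the mean ± SD of 8 arrays. The series overlapped at each gene, and Psmc1 lay between 10.67 and 11.03 on the water arrays and between 10.96 and 11.73 on the DMSO arrays.

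Of 11 genes induced by glucocorticoids or fasting, 4 were higher at an unadjusted p under 0.05 (10.5% of all genes were) and 0 lower, with a median of 0.31. They were the metal-binding metallothionein gene Mt2 (0.76, SE 0.33), the receptor co-chaperone gene Fkbp5 (0.62, SE 0.27), the transcription factor gene Klf9 (0.44, SE 0.17) and Tsc22d3, which encodes the glucocorticoid-induced leucine zipper (0.37, SE 0.18). Fkbp5 and Tsc22d3 were lowest on Ctr1 2, at 7.80 and 8.97. The deposited intensity of Fkbp5 there was 313, just inside the limit of 300. Without Ctr1 2 the differences of Fkbp5 and Tsc22d3 were 0.38 and 0.24. At Mt2 the controls ran the other way, with 10.85 and 12.03 in Ctr1 and 10.48 and 11.55 in Ctr2, and without the 4 dim arrays 0 of the 11 genes had an unadjusted p under 0.05, where 12.1% of all genes were higher. Without Ctr1 1, Ctr1 2 or Fru 2 the count was 2 (9.43%, 8.18% and 12.9% of all genes). Among 34 genes of xenobiotic response, 4 were higher (11.8%) and 2 lower (5.88%), near the 10.5% and 3.84% of all genes. Beside Cyp3a13, Ugt1a6b, which conjugates phenols to glucuronic acid, differed by 0.38 (SE 0.14), and the glutathione transferase genes Gstt1 and Gstp1 by -0.32 (SE 0.12) and -0.31 (SE 0.14).

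On the lower side, 4 of 23 genes of antigen presentation had an unadjusted p under 0.05 and 0 were higher (17.4%, against 3.84% of all genes in that direction), with a median of -0.12. All 4 belonged to class I of the major histocompatibility complex, whose products show peptides to T cells and whose genes share much sequence, so the probes may not be independent. H2-Bl, a pseudogene in RefSeq, lay between 8.74 and 9.40 on the water arrays and between 7.60 and 8.84 on the DMSO arrays (-0.69, SE 0.16, adjusted p = 0.0823), and Ctr2 2 alone overlapped. H2-Q8 differed by -0.51 (SE 0.19), H2-T23 by -0.43 (SE 0.15) and H2-D1 by -0.29 (SE 0.14), and at H2-Bl, H2-Q8, H2-T23 and H2-D1 CGA 1 was the lowest array. Of 12 goblet cell genes, 3 were lower at an unadjusted p under 0.05 (3.84% of all genes were) and 0 higher, with a median of -0.12. They were the chemokine gene Ccl6 (-0.76, SE 0.27), the goblet cell transcription factor gene Spdef (-0.78, SE 0.33) and the trefoil factor gene Tff3, which protects the mucus layer (-0.23, SE 0.10). Ccl6 and Spdef were highest on Ctr1 1, at 11.97 and 11.37, and on Chic 1, at 11.52 and 10.89, and these 2 arrays were also high in liver transcripts. Atoh1, the factor that commits cells to the secretory lineage, differed by -0.23 (SE 0.15). Of 87 cytosolic ribosomal protein genes, 5 were higher (5.75%, against 10.5%) and 10 lower (11.5%, against 3.84%), with a median of -0.02.

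The series difference was also taken apart into control mice (Ctr2 against Ctr1) and fed mice (CGA and STL against Chic and Fru), which share no array. Between the controls 0 genes were called by limma (0%) and 228 had an unadjusted p under 0.05 (6.04%; 3.65% higher, 2.38% lower). Between the fed mice 1 gene was called (0.0265%), Pde4c, which fell by 0.70 (adjusted p = 0.0348), and 427 had an unadjusted p under 0.05 (11.3%, of which 8.53% of genes were higher and 2.78% lower). Pde4c differed by -0.97 between the controls. The difference between the fed and control contrasts was called for 0 genes, with 137 at an unadjusted p under 0.05 (3.63%, as 2.04% higher and 1.59% lower). Over all 3777 genes, 58.8% had the same sign in both contrasts (r = 0.35 across genes, which are not independent replicates). Ahsg differed by -4.23 between the controls and by -1.90 between the fed mice, and Mup1 by -3.99 and -2.97. The first value of each rests on Ctr1 1 and on Ctr1 2, the array that set the rows. The same comparison called 0 of 5275 genes in the ileum (0%), with 182 at an unadjusted p under 0.05 (3.45%, as 1.65% higher and 1.80% lower), and 224 of 4120 in the liver (5.44%), where 127 rose (3.08%) and 97 fell (2.35%). In the ileum and liver tables, spots that carry one probe name differed with a median SD of 1.04 and 1.09 on the log2 scale, against 0.19 in the caecum table, so gene names there are uncertain and no gene of those tissues is named.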

How the data were processed

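Total RNA of the caecum was labelled with Cy3 and hybridised to Agilent 4 × 44K v2 mouse arrays. The authors deposited linear array intensities as whole numbers in a separate table for each tissue, covering part of the array. Their methods name GenePix Pro and quantile normalization, the submitters' processing notes Agilent Feature Extraction, and background correction is not given in the sources used here. How rows were chosen is not given in the sources used here, and the caecum rows all reach 300 on Ctr1 2. The medians of the deposited intensities differed between arrays, so these were not quantile-normalized. Of 6214 caecum rows, 227 control rows and 878 rows without a gene symbol were left out, and 23 values at or below 0 were set to missing. Values were log2-transformed and quantile-normalized over the 16 arrays with limma 3.58.1 in R 4.3.3, repeated spots of a probe were averaged, and each gene was represented by its brightest probe (3777 genes, 3739 found in RefSeq). The fit was lmFit and eBayes with series as the factor (8 against 8), and a 6-group fit for the other caecum contrasts. Benjamini-Hochberg adjustment covered all genes, threshold 0.05, two-sided. No detection flags were used, and the number of arrays limits the precision. The labels give each array as a separate individual.

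Genes named are the called genes, up to 4 members of each described list with the largest moderated statistic, Gla, Cfd, Saa3, S100g and Eif2s3y. All other genes were named after their values were seen. One gene that the rule names is not reported here. The members and lists were chosen with earlier results of these data known. The fits were tested on simulated data. Alternatives were other scalings, probe rules, a low-level filter, a variance trend, array weights, the replicate number or gender tag in the model, and leaving out arrays; counts per list under them were added after the data were seen. Plots were drawn with Python 3.11.15.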

Additional observations from a re-analysis of the deposited data

Results flagged for a closer look

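Within the 8 arrays of a series, 24 of 144 sets of values (72 genes, 2 series) had an array set far apart from its neighbour, where the critical value used is set to flag about 1 in 20 by chance. The sets share arrays and are not independent. Fru 2 was the highest water array at Ndufb11 (12.82, next 11.91), Ndufa5 (12.52, next 12.02), Psmd4 (11.78, next 11.34), Decr1 (11.81, next 11.15), Hbb-b2 (11.16, next 9.69) and Hbb-bt (12.57, next 10.92). STL 3 was the highest DMSO array at Hba-a1 (14.70, next 12.32), Hbb-b2 (12.52, next 9.91) and Hbb-bt (14.57, next 11.64). Ctr2 1 was the highest at Mup19 (10.87, next 8.54), Mup20 (8.76, next 6.29) and Mup4 (9.70, next 7.12) and the lowest at Mrps18b (9.85, next 10.08). CGA 1 was the lowest at Gm11127 (10.71, next 11.29), H2-Bl (7.60, next 8.26) and H2-T23 (11.37) and the highest at Tsc22d3 (10.97, next 10.39), and CGA 3 was the lowest at Psmd4 (11.26, next 11.75). Ctr1 2 was the lowest water array at Fkbp5 (7.80, next 9.32) and Tsc22d3 (8.97, next 9.80) and the highest at Gm5069 (12.26, next 12.04). Ctr2 2 was the lowest DMSO array at Rn18s (2.78, next 11.17), Spdef (7.85, next 8.70) and Gm5069 (11.38, next 11.61).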

How the results depend on the processing

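The number of arrays limits these calls. For the DMSO against the water series, the 2 genes called in the caecum became 0 when deposited values were fitted directly, when arrays were aligned at the 75th percentile, with the gender tag as a covariate and without the dim arrays, and became 9 in the 6-group fit, 6 with the replicate number as a block and 162 with array weights (119 higher, 43 lower), and 0 to 40 when single arrays were left out (40 without Fru 2, 35 without Ctr2 1, 13 without Fru 3, 8 without Ctr2 2, 3 without CGA 3, and 0 without any of the 9 arrays named above). For Ctr2 against Ctr1 the 0 became 1 with array weights and 0 to 38 without single arrays (38 without Ctr1 1, 18 without Ctr2 1). Between the fed mice the 1 became 0 with the values as deposited, the 75th percentile, the replicate block, the groups compared alone or without the dim arrays, 3 with the mean of all probes, 4 without the genes of lowest mean (a share of 0.25), 2 with a variance trend, 111 with array weights, and 0 to 4 without single arrays (4 without Fru 2, 0 without any other). For the fed against the control difference the 0 became 1 with array weights and 0 to 30 without single arrays (30 without Ctr1 1, 19 without Ctr2 1). The liver count of 224 became 4 as deposited and 127 to 225 without single arrays, and the ileum count stayed at 0. The difference of array medians, 0.10, ran from -0.22 to 0.24 and turned to -0.22 without Fru 2. The cause of these changes was not tested. Arrays with the same replicate number in different groups had a median r of 0.19 over 36 pairs (from -0.38 to 0.65), against -0.10 over 70 pairs of other numbers, and since not every pair was positive the numbers were not taken as pairs.

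The MUP median ran from -3.57 to -1.82 and the hepatocyte median from -1.33 to -0.80 over all settings, the smallest sizes with the gender tag as a covariate. As deposited, the median of all genes rose from 0.06 to 0.13. Directions turned at Defa1 with the mean of its probes (-0.024) and without the dim arrays (-0.18), at Pla2g2a with array weights (-0.12) and without the dim arrays (-0.33), and at Hbb-b2 with the gender tag (-0.061). Without single arrays Defa1 ran from -0.33 to 1.13, turning without Fru 1, Chic 3 or Ctr2 2, Pla2g2a from -0.087 to 0.72, turning without the same 3 arrays, and Hbb-b2 from -0.15 (without STL 3) to 0.47.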

Other observations

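Of the predicted genes picked for levels most like Pde4c, which fixes their sign, Gm10631 differed by -0.68, A830073O21Rik by -0.77 and 9230110C19Rik by -0.70 between the DMSO and the water series. Among 154 measured predicted and RIKEN-named genes, 14 were higher at an unadjusted p under 0.05 (9.09%, near the 10.5% of all genes). On the lower side there were 21 (13.6%, against 3.84% of all genes), and the median was -0.03. In the 6-group fit, 9 of the 3777 genes were called. Lower in the DMSO series were Pde4c, Gm4971, Serpina1c, Serpina1e, Ahsg, Klk1b22, Gm10631 and 9230110C19Rik. Fa2h, which encodes the fatty acid 2-hydroxylase of sphingolipid synthesis, was higher by 0.87. Ahsg and Klk1b22 read 428 and 419 on Ctr1 2, just inside the limit of 300, so their direction is partly set by the table.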
